A study of Homo sapiens with 6 samples.

Results

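The peroxisome proliferator-activated receptor γ coactivator 1 (PGC-1) family and the nuclear factors that act with it were followed in TC28a2 cells treated with mocetinostat. The 10 genes described are the coactivators *PPARGC1A* (PGC-1α), *PPARGC1B* (PGC-1β), and *PPRC1* (PRC), the transcription factor genes *NRF1*, *GABPA*, and *GABPB1*, and the mitochondrial transcription genes *TFAM*, *TFB1M*, *TFB2M*, and *POLRMT*. They were chosen by their gene names among the 60623 genes of the count table. TC28a2 is an immortalized human chondrocyte line. Cells received 2 μM mocetinostat, an inhibitor of class I histone deacetylases (HDACs), or the solvent DMSO for 24 hours. Each condition had 3 samples, from what the study describes as 3 independent experiments. The labels do not tie replicate numbers to those experiments, so p-values measure the spread between these samples. All samples come from the same line, and no primary cells or cartilage are described here.

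PGC-1 coactivators do not bind DNA by themselves. They are recruited by nuclear receptors and by the nuclear respiratory factors NRF1 and GABP (NRF2), and through these they raise the transcription of nuclear genes for mitochondrial proteins. Among those genes are *TFAM*, *TFB2M*, and *POLRMT*, whose products transcribe the mitochondrial genome, and in chondrocytes PGC-1α is known as a regulator of mitochondrial mass and of the response to oxidative stress.

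Total counts per sample were between 4873426 and 11031132 with DMSO and between 1619344 and 5089542 with mocetinostat, so that low expression was measured with less precision after treatment. Of the chondrocyte markers examined, 10 of 14 were tested and none was at 0 in every sample, but the markers were low. Their summed level was 127 to 148 CPM (counts scaled to the library total) with DMSO and 274 to 316 CPM with mocetinostat. The 7 fibroblast markers summed to 4155 to 5058 CPM with DMSO and 4121 to 4488 CPM with mocetinostat, nearly all of it *COL1A1* (mean 4544 and 3932 CPM, log2 fold change -0.21). Of the other 6 fibroblast markers, *PDGFRA* (3.82), *LUM* (2.71), *COL1A2* (1.73), and *THY1* (0.75) were higher on the log2 scale with an adjusted p under 0.05, *FAP* had -0.63 (adjusted p = 0.266 with the edgeR test), and *DCN* was not tested. The 9 muscle markers, of which 1 was tested, summed to 32.8 to 43.8 and 61.4 to 77.7 CPM, respectively. The tested one was *TNNT1* (log2 fold change 0.80), and 6 of the 9 held at most 3 counts in every DMSO sample. For the 5 adipocyte markers, of which 1 was tested, the sums were 1.03 to 2.71 and 17.97 to 24.04 CPM, with *LEP* at 0 in every sample. This difference was that of *FABP4* alone (mean 0.0603 and 19.8 CPM), while *ADIPOQ* (0.594 and 0.207), *PLIN1* (0.886 and 0.675), and *CIDEC* (0.188 and 0.345) had means under 1 CPM in each condition. The part of these marker changes in the results was not tested.

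All 10 genes passed the expression filter, and in all 10 the CPM values of the conditions did not overlap. By the quasi-likelihood test of edgeR, with p-values adjusted by the Benjamini-Hochberg method over the 13966 genes tested, 3 of the 10 were higher and 7 were lower at an adjusted p under 0.05. Values did not overlap for 66.5% of all genes tested (33.7% with mocetinostat above DMSO and 32.8% below). At the same adjusted p, 32.9% of all genes tested were higher and 31.4% were lower, so a change of some size was common in these cells. At an absolute log2 fold change over 1 as well, the threshold of the study for upregulated genes (URGs) and downregulated genes (DRGs), 1 of the 10 was a URG (*PPARGC1A*) and 4 were DRGs (*PPRC1*, *NRF1*, *GABPA*, and *TFB2M*). Over all genes tested, 20.2% were URGs and 8.18% were DRGs. The median log2 fold change of the 10 genes was -0.74, beside -0.00 for all genes tested. In bulk RNA, fewer cells of a type and less RNA per cell cannot be told apart.

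**Figure D1:**
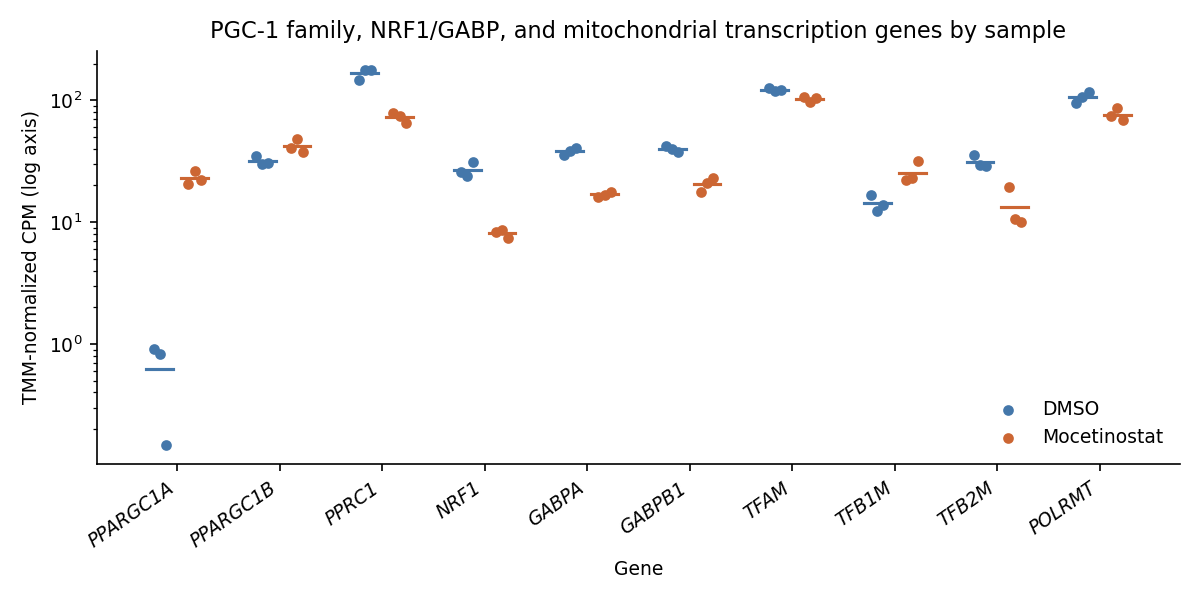
TMM-normalized CPM (log axis) of the 10 genes in each DMSO sample (blue) and mocetinostat sample (orange), with the mean of each condition as a line. *PPARGC1A*, *PPARGC1B*, and *TFB1M* sit higher with mocetinostat and the other 7 genes lower, without overlap between conditions.

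Mocetinostat significantly upregulated *PPARGC1A* from a very low level. *PPARGC1A* (chr4:23755041-23904089, minus strand, GRCh38) encodes the inducible family member PGC-1α. The reads counted in replicates 1, 2, and 3 numbered 10, 4, and 1 for DMSO but 103, 42, and 53 for mocetinostat. Normalized by the TMM method, this was 0.905, 0.833, and 0.147 CPM with DMSO against 20.4, 26.0, and 22.0 CPM with mocetinostat. The treated samples were close to each other, while the DMSO samples, with few reads each, differed more, and DMSO replicate 3 was the lowest with 1 read. The gene passed the expression filter only through the mocetinostat samples, and it was not tested when every sample had to hold 10 counts or more. Its log2 fold change was 5.05 (SE, the standard error, 0.37, adjusted p = 5.68e-20 with edgeR's quasi-likelihood test), which placed it at percentile 97.97 of the fold changes of all genes tested. As a ratio of the pooled shares of counts, 198 of the mocetinostat counts against 15 of the DMSO counts made 33.0-fold, with a 95% exact interval of 19.5 to 60.1 that covers counting error only.

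*PPARGC1B* (chr5:149730298-149855022, plus strand) encodes PGC-1β, the more constitutive relative of PGC-1α. It stood at 34.6, 29.8, and 30.5 CPM with DMSO and at 40.6, 47.7, and 37.7 CPM with mocetinostat. The lowest treated sample was close to the highest DMSO sample. The log2 fold change of 0.38 (SE 0.15, adjusted p = 0.0209 with the edgeR test) was below the threshold for a URG. The adjusted p was 0.128 with DESeq2 and 0.571 without the expression filter, and it also passed 0.05 without DMSO replicate 2 (0.112), DMSO replicate 3 (0.0791), mocetinostat replicate 1 (0.0556), or mocetinostat replicate 2 (0.108).

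The third coactivator went the other way. *PPRC1* (chr10:102132994-102150333, plus strand) encodes PRC, a family member that is induced by serum in proliferating cells. Its counts of 1624, 855, and 1211 with DMSO and 396, 120, and 157 with mocetinostat corresponded to 147, 178, and 178 CPM against 78.5, 74.4, and 65.1 CPM. Every treated sample was far below every DMSO sample. The log2 fold change was -1.19 (SE 0.11, adjusted p = 3.42e-16 with the edgeR test), and *PPRC1* was left with 43.7% of its DMSO level. When glmTreat asked whether the change exceeded 1 on the log2 scale, its adjusted p was 0.0544.

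Levels of different genes can be compared only per exon length, as CPM per kilobase of exons (RPKM). The length used joins all annotated exons of a gene, at 10870 bases for *PPARGC1A*, 12889 for *PPARGC1B*, and 6097 for *PPRC1*. Levels and shares between genes therefore depend on the annotated isoforms. On this scale, *PPRC1* was the main family member in each condition, with a mean of 27.5 RPKM with DMSO and 11.9 RPKM with mocetinostat. *PPARGC1B* had means of 2.45 and 3.26 RPKM, and *PPARGC1A* had means of 0.0578 and 2.098 RPKM. Of the summed RPKM of the 3 coactivators, *PPARGC1A* made up 0.310%, 0.243%, and 0.0428% in the DMSO samples and 10.5%, 13.1%, and 12.9% in the mocetinostat samples, in order of replicate number. The share of *PPRC1* was 89.7% to 92.5% with DMSO and 66.7% to 71.9% with mocetinostat. *PPARGC1B* made up 7.31% to 9.98% with DMSO and 17.6% to 20.2% with mocetinostat. The summed RPKM itself was lower after treatment, at 15.6 to 18.3 against 26.9 to 31.7 with DMSO, so that the family as a whole had less RNA on this scale although *PPARGC1A* had risen.

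**Figure D2:**
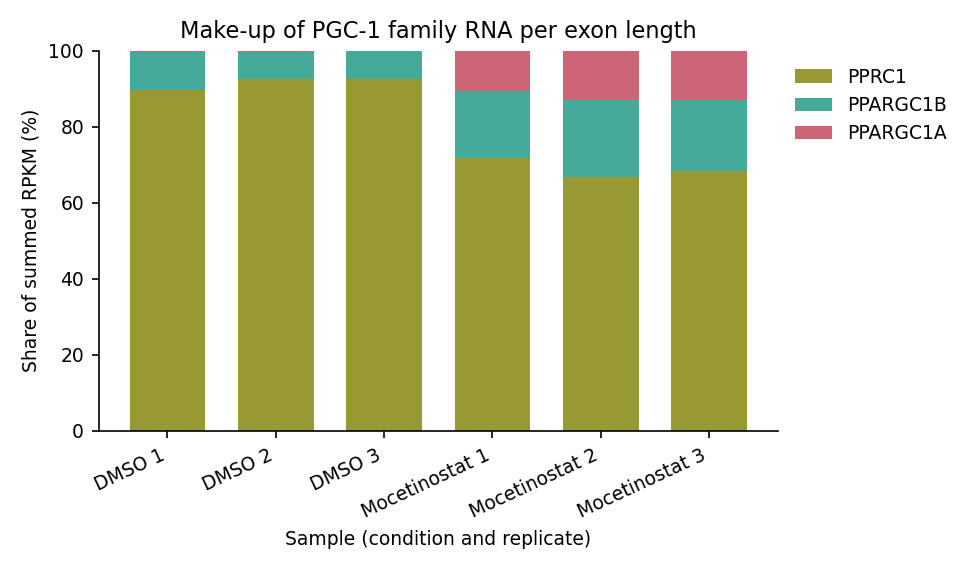
Share (%) of each PGC-1 family gene in the summed RPKM of the 3 genes, as stacked bars for each of the 6 samples. The *PPARGC1A* segment is at most 0.310% with DMSO and between 10.5% and 13.1% with mocetinostat, while *PPRC1* remains the largest segment in every sample.

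A ratio of 2 genes within a sample does not depend on the scaling between samples. The log2 ratio of *PPARGC1A* to *PPRC1* counts rose by 6.501, from a mean of -8.17 with DMSO to -1.67 with mocetinostat. That of *PPARGC1A* to *PPARGC1B* rose by 4.89, and that of *PPARGC1B* to *PPRC1* by 1.61. Without DMSO replicate 3, which held 1 *PPARGC1A* read, the first rise was 5.76 and the second 4.21. These 3 ratios did not overlap between conditions. In an exact two-sided permutation test each had p = 0.1, the smallest p that 3 samples against 3 can give, and p = 0.15 after adjustment over the 6 ratios computed.

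*NRF1* (chr7:129611720-129757082, plus strand) encodes nuclear respiratory factor 1, which binds a GC-rich palindrome as a dimer. The DMSO counts were 286, 115, and 211, and the mocetinostat counts were 42, 14, and 18. In CPM, the DMSO samples were at 25.9, 23.9, and 31.1 and the mocetinostat samples at 8.33, 8.68, and 7.46. The groups were separated by a wide gap. The log2 fold change was -1.73 (SE 0.22, adjusted p = 1.86e-10 with the edgeR test), the lowest of the 10 genes, which left *NRF1* at 30.2% of its DMSO level. It was the only DRG among the 10 that kept the call with *GAPDH* scaling, with a log2 fold change of -1.19, and with glmTreat.

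GABP, also called NRF2, is built from a DNA-binding ETS subunit encoded by *GABPA* and an activating subunit encoded by *GABPB1*. *GABPA* (chr21:25734570-25772460, plus strand) stood at 35.2, 38.1, and 40.8 CPM with DMSO and at 16.1, 16.7, and 17.8 CPM with mocetinostat. The samples of each condition lay close together. Its log2 fold change was -1.18 (SE 0.17, adjusted p = 1.54e-08 with the edgeR test), and in thinned libraries it was -0.90 and no longer past the threshold for a DRG. *GABPB1* (chr15:50275389-50355408, minus strand) stood at 42.2, 39.8, and 37.9 CPM with DMSO and at 17.6, 21.1, and 23.2 CPM with mocetinostat. Its log2 fold change of -0.99 (SE 0.17, adjusted p = 3.89e-07 with the edgeR test) missed the threshold for a DRG by a small margin, and it was called with DESeq2 (-1.01), without the expression filter (-1.24), and in 4 of the 6 fits with a sample left out. The subunits were thus lower side by side. The log2 ratio of *GABPA* to *GABPB1* was -0.07 ± 0.19 (SD, n = 3) with DMSO and -0.28 ± 0.13 (SD, n = 3) with mocetinostat, a difference of -0.21 with overlapping values (exact two-sided permutation p = 0.2, also after adjustment).

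Both GABP genes have exons that overlap another gene, and the sources used here do not state whether counting used strand. Exons of *ATP5PF* on the opposite strand cover 12.1% of those of *GABPA*, and *ATP5PF* itself was lower (log2 fold change -0.77). *GABPB1-AS1*, antisense to *GABPB1*, covers 7.46% of its exons and had a log2 fold change of -0.57. The part of the overlapping genes in these counts was not tested. For *NRF1*, the overlapping pseudogene *RNA5SP244* covers 2.72% of its exons and held 0 counts in every sample.

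The 4 mitochondrial transcription genes are shown with the promoter stretch next to their start, because they are known targets of the nuclear respiratory factors and yet moved in different directions. In the RefSeq table, 9 of the 10 genes were matched by symbol, all but *NRF1*. Each sequence holds the 150 bases upstream of the RefSeq start (GRCh38.p14), 5′ to 3′ on the strand of the gene. Capitals mark matches to the palindrome bound by NRF1, written as GCGCA and GCGC with any base (N) between them, to its shorter form GCATGCGC, and to CCGGAAG, an ETS motif of the kind bound by GABP, searched on both strands. The palindrome and its shorter form can overlap each other. The motifs and the window were chosen after the sequences had been looked at.
TFAM, chr10:58385260-58385409, plus strand: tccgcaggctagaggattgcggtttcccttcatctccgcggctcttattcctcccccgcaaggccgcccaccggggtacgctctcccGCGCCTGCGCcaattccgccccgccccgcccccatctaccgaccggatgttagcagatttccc
TFB1M, chr6:155314485-155314634, minus strand: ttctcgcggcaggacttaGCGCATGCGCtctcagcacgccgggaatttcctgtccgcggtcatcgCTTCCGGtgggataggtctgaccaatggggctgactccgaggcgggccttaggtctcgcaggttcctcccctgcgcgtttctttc
TFB2M, chr1:246566262-246566411, minus strand: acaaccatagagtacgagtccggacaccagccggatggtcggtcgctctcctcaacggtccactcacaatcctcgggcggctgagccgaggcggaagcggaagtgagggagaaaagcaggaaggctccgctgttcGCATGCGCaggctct
POLRMT, chr19:633538-633687, minus strand: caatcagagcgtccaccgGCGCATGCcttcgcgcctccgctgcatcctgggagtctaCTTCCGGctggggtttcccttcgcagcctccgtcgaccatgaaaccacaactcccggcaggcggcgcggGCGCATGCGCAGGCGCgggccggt
All 4 windows held the NRF1 palindrome or its shorter form, which 5.35% of 35116 promoter windows of this length held. The palindrome alone was in 4.29%, its shorter form in 2.17%, and the ETS motif in 6.85% of them. In *TFB1M* and *POLRMT* the ETS motif was present as well, and it was also in the window of *GABPA*. It was searched as these exact letters, so its absence from the windows of *TFAM* and *TFB2M* says only that they are absent there. The *TFB2M* window holds GCGGAAG, which differs from the ETS motif in its first letter. No match was found in the windows of *PPARGC1A*, *PPARGC1B*, *PPRC1*, or *GABPB1*, which says only that these letters are absent there. For *PPARGC1A*, the windows at chr4:24472906-24473055 and chr4:23881102-23881251 lie outside and inside the gene span given above, respectively. The windows of *PPARGC1B* (chr5:149771790-149771939), *GABPA* (chr21:25734822-25734971), and *GABPB1* (chr15:50355199-50355348) lie inside their spans. These windows are therefore not at the gene starts given above. The windows of *TFAM*, *TFB1M*, and *PPRC1* overlap their gene spans in part. A match is a description of the sequence, and no binding was measured.

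*TFAM* (chr10:58385345-58399220, plus strand) encodes the factor that packages mitochondrial DNA and bends it at promoters. Counts of 1387, 569, and 825 for DMSO and of 532, 155, and 253 for mocetinostat made 125, 118, and 122 CPM against 105, 96.1, and 105 CPM. The treated samples were lower by a small amount, at 84.2% of the DMSO level in the fit. The log2 fold change was -0.25 (SE 0.10, adjusted p = 0.0280 with the edgeR test). It became 0.29 with each library scaled to its *GAPDH* count, and its adjusted p was 0.253 with upper-quartile factors, 0.133 with at least 10 counts in every sample, 0.405 after thinning to the total of the smallest library, and 0.0577 without mocetinostat replicate 2.

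*POLRMT* (chr19:617221-633537, minus strand) encodes the mitochondrial RNA polymerase. Its levels were 94.7, 106, and 117 CPM with DMSO and 74.1, 85.5, and 68.4 CPM with mocetinostat. All treated samples were below the lowest DMSO sample. The log2 fold change of -0.49 (SE 0.11, adjusted p = 0.000129 with the edgeR test) did not reach the threshold for a DRG, and with *GAPDH* scaling it was 0.04 (adjusted p = 0.785). The log2 ratio of *TFAM* to *POLRMT* differed by 0.22 between conditions, with overlapping values (exact two-sided permutation p = 0.2).

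*TFB1M* and *TFB2M* are paralogs that descend from rRNA methyltransferases. TFB2M opens mitochondrial promoters together with POLRMT, while TFB1M methylates the small mitochondrial ribosomal RNA. *TFB2M* (chr1:246540561-246566261, minus strand) had 393, 141, and 194 reads in the DMSO samples and 98, 17, and 24 in the treated samples, which made 35.6, 29.4, and 28.6 CPM against 19.4, 10.5, and 9.95 CPM. Mocetinostat replicate 1 was well above the other treated samples. *TFB2M* was a DRG, and its log2 fold change was -1.11 (SE 0.20, adjusted p = 1.22e-06 with the edgeR test). Without mocetinostat replicate 1 the log2 fold change was -1.63, and without mocetinostat replicate 3 it was -0.94 and the call was lost, as it was with upper-quartile factors (-0.99).

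*TFB1M* (chr6:155256134-155314493, minus strand) had 184, 59, and 93 reads in the DMSO samples and 111, 37, and 76 in the treated samples. Against the smaller totals of the treated samples these were 16.6, 12.3, and 13.7 CPM with DMSO and 22.0, 22.9, and 31.5 CPM with mocetinostat. *TFB1M* was therefore higher in every treated sample, and its log2 fold change was 0.80 (SE 0.20, adjusted p = 0.000319 with the edgeR test). Among the genes grouped here under mitochondrial transcription, *TFB1M* was the only one that was higher, and its direction held in every alternative. However, 30.7% of its exon bases are covered by exons of *TIAM2* on the opposite strand. For *TIAM2*, the counts were 237, 78, and 123 (DMSO) and 170, 58, and 67 (mocetinostat), and the log2 fold change was 0.78 (adjusted p = 9.44e-05 with the edgeR test), so that a gene overlapping *TFB1M* rose by a similar amount. A lncRNA on the same strand (ENSG00000235381) covers 14.4% of its exons and had a log2 fold change of 0.20 (adjusted p = 0.754 with the edgeR test). The part of either in the *TFB1M* counts was not tested. The log2 ratio of *TFB1M* to *TFB2M* went from -1.13 ± 0.10 (SD, n = 3) with DMSO to 0.97 ± 0.74 (SD, n = 3) with mocetinostat without overlap (exact two-sided permutation p = 0.1, adjusted p = 0.15). Per exon length, *TFB2M* was the more abundant RNA with DMSO, at a mean of 17.5 RPKM beside 3.46 RPKM for *TFB1M*. These levels depend on the joined exon lengths, which were 1784 bases for *TFB2M* and 4111 bases for *TFB1M*. With mocetinostat the order varied between samples, at 10.9, 5.91, and 5.58 RPKM for *TFB2M* and 5.35, 5.58, and 7.66 RPKM for *TFB1M*. The means were 7.46 and 6.20 RPKM, and without mocetinostat replicate 1 they were 5.74 and 6.62 RPKM.

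**Figure D3:**
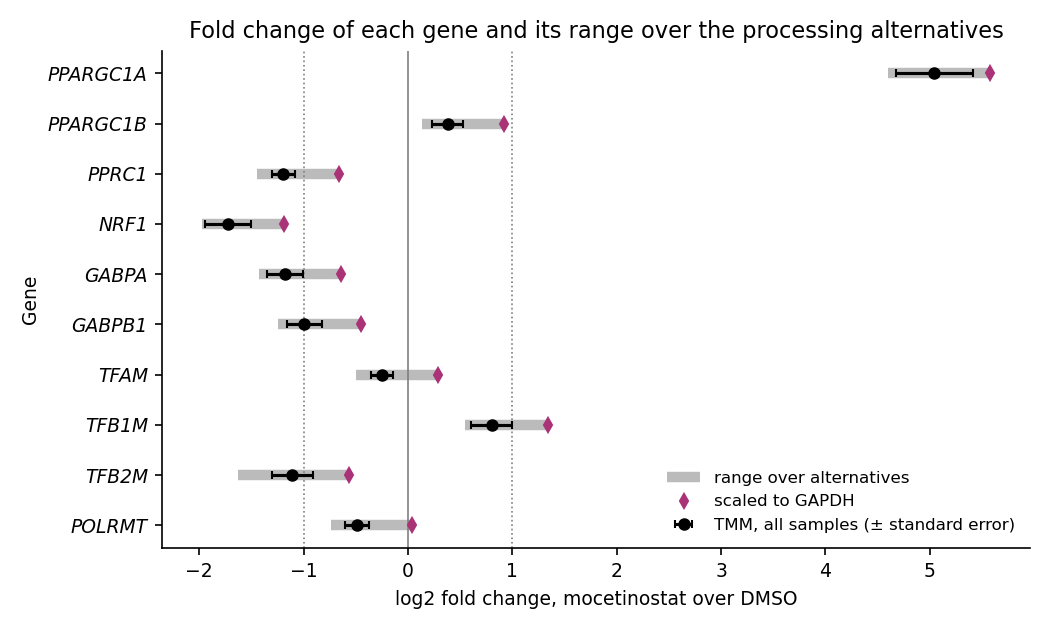
log2 fold change (mocetinostat over DMSO) of the 10 genes with its standard error (black, TMM, 3 against 3 samples), its range over the processing alternatives (grey bars), and its value with each library scaled to *GAPDH* (purple). Dotted lines mark the thresholds of -1 and 1. *TFAM* and *POLRMT* cross 0 under *GAPDH* scaling, and no other gene changes direction.

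*GAPDH* itself had a log2 fold change of -0.53 (adjusted p = 2.58e-12 with the edgeR test), and scaling to it moved the log2 fold change of the median gene by 0.54. Relative to that shift, the order of the 10 genes is the same. With this scaling, 4 of the 10 were higher and 5 were lower at an adjusted p under 0.05, and *PPARGC1A* and *TFB1M* were URGs.

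The wider machinery for mitochondrial gene expression was described by lists. For comparison, 32.9% of all genes tested were higher, 31.4% were lower, and 8.18% were DRGs. Of 9 genes for mitochondrial transcription, which include *TFAM*, *TFB1M*, *TFB2M*, and *POLRMT*, 1 was higher (*TFB1M*) and 6 were lower, and the median log2 fold change was -0.49. Among them, the terminator family member *MTERF4* (log2 fold change -1.23) and the elongation factor *TEFM* (-1.03) were DRGs, but exons on the opposite strand cover 51.0% of *MTERF4* and 20.5% of *TEFM*, and the *TEFM* values of the conditions overlapped. *TEFM* was no DRG without DMSO replicate 1 (-0.91), mocetinostat replicate 1 (-0.96), or mocetinostat replicate 3 (-0.76). Of 20 genes for mitochondrial RNA processing and stability, 0 were higher and 18 were lower, with a median of -0.66, beside 31.4% lower among all genes tested. *PRORP*, the protein-only RNase P subunit, was the lowest at -2.06, although another gene on the same strand covers 40.9% of its exons. *PRORP* held 138, 55, and 90 counts with DMSO but only 17, 9, and 1 with mocetinostat. Dropping single samples gave *PRORP* values between -2.42 and -1.64. The other DRGs with the largest changes in this list were the methyltransferase gene *NSUN4* (-1.22), the poly(A) polymerase gene *MTPAP* (-1.14, with 19.5% of its exons covered by a gene on the same strand), and the helicase gene *SUPV3L1* (-1.10), and the highest gene was *REXO2* (log2 fold change 0.00, adjusted p = 0.988 with the edgeR test). Of 17 genes for replication and upkeep of mitochondrial DNA, 1 was higher (*MPV17*, 0.55) and 10 were lower, with a median of -0.41 and 1 DRG, the helicase gene *TWNK* (-1.03), which was no DRG without DMSO replicate 3 or mocetinostat replicate 1 (both -0.98). *SUPV3L1* likewise lost the call without DMSO replicate 1 (-0.99). In thinned libraries *TWNK* (-0.85) and *SUPV3L1* (-0.73) were no DRGs either. Under *GAPDH* scaling, the genes that were higher and lower numbered 2 and 2 for transcription, 3 and 7 for RNA processing, and 6 and 2 for replication.

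Most genes for mitochondrial protein import fell as well. Of 21 genes, 20 were tested, 0 were higher, 17 were lower, and 7 were DRGs. Among all genes tested, 32.9% were higher, 31.4% were lower, and 8.18% were DRGs. The median log2 fold change of the import genes was -0.83. The receptor gene *TOMM22* (-1.58), the inner membrane translocase gene *TIMM50* (-1.42), the sulfhydryl oxidase gene *GFER* (-1.30, with 41.5% of its exons covered from the opposite strand), and the small chaperone gene *TIMM9* (-1.20) had the largest changes, and *TIMM8A* was the least changed at -0.25 (adjusted p = 0.282 with the edgeR test). With *GAPDH* scaling, 9 were lower and 0 were higher.

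By contrast, the mRNAs that the mitochondrial genome encodes were more often higher than lower with TMM, although not without the expression filter. Their share of all counts was 2.93%, 3.03%, and 2.86% in the DMSO samples and 3.27%, 3.34%, and 3.42% in the treated samples. The share was higher in every treated sample, by 0.400 percentage points on average (exact two-sided permutation p = 0.1, the smallest possible). Of the 13 mRNAs, 7 were higher and 1 was lower at an adjusted p under 0.05, with log2 fold changes from -0.45 to 0.34, a median of 0.16, and none past the threshold of 1. Among all genes tested, 32.9% were higher and 31.4% were lower. The highest of the 13 was *MT-ATP8* (0.34, adjusted p = 0.00158 with the edgeR test) and the lowest *MT-ND4L* (-0.45, adjusted p = 0.00140). Each overlaps its neighbor in the mitochondrial genome, and *MT-ND4L* was uneven among DMSO samples, at 2819, 875, and 773 counts. When DMSO replicate 1 was left out, *MT-ND4L* had a log2 fold change of -0.13, and its adjusted p was over 0.05 there and with DESeq2, so that the count of lower mRNAs was then 0. The direction of these small changes depended on scaling: 12 were higher under *GAPDH* scaling, whereas without the expression filter 0 were higher and 5 were lower.

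The genes often used as readouts of PGC-1α activity were mixed. Of 25 genes, 18 were tested, 11 were higher, 2 were lower, and 8 were URGs. The shares over all genes tested were 32.9% higher, 31.4% lower, and 20.2% URGs. The median of the 18 genes was 0.79 on the log2 scale. With *GAPDH* scaling, 16 were higher and 1 was lower. Several of the URGs had passed the filter only through the mocetinostat samples, so these counts do not describe all 25 genes. *PCK1*, the gluconeogenic carboxykinase gene, had 0, 2, and 2 reads in the DMSO samples and 11, 5, and 6 in the treated samples, a ratio of 13.8 with a 95% counting interval of 4.67 to 54.9. Its fitted log2 fold change was 3.60, and 2.72 without DMSO replicate 1. *SLC2A4*, which encodes the insulin-responsive glucose transporter, held 6, 5, and 3 counts against 28, 9, and 21 (log2 fold change 3.33). *PDK4*, an inhibitor of pyruvate dehydrogenase, held 11, 3, and 7 counts against 54, 20, and 27 (log2 fold change 3.59). *UCP2*, an uncoupling protein family gene, had a log2 fold change of 1.56. The mitofusin gene *MFN2* was the only DRG of the list, at -1.15 (adjusted p = 1.40e-16 with the edgeR test), and was at -0.98 in thinned libraries. The respiratory genes of the list, which were singled out after their values had been seen, changed little: *CYCS* had a log2 fold change of 0.26, *COX4I1* one of -0.16, and *ATP5F1B* one of -0.22. The *CYCS* values of the conditions overlapped. Its adjusted p of 0.0463 with the edgeR test rose over 0.05 with DESeq2 and without the expression filter. *COX4I1* and *ATP5F1B* changed direction with *GAPDH* scaling.

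**Figure D4:**
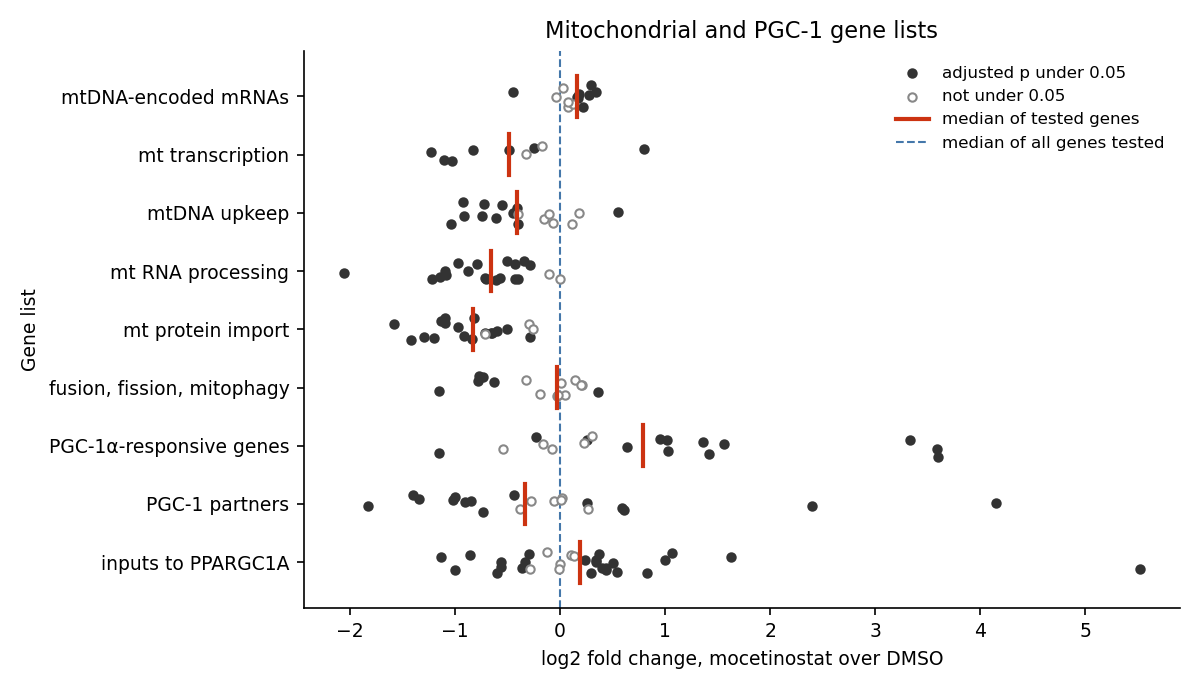
log2 fold change (mocetinostat over DMSO) of each tested gene in 9 lists, filled where the adjusted p was under 0.05, with the list's median (red) and the median of all genes tested (dashed). RNA processing and import lie to the left of 0, mRNAs encoded by mitochondrial DNA lie near 0, and PGC-1α-responsive genes spread to the right. Several genes far to the right passed the expression filter only through the mocetinostat samples, so they could enter only with higher values.

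Among 26 nuclear receptors and other factors that bind PGC-1 proteins, 20 were tested, 5 were higher, and 9 were lower. The shares over all genes tested were 32.9% higher and 31.4% lower. The median of the 20 genes was -0.33 on the log2 scale. With *GAPDH* scaling, 9 were higher and 7 were lower. The thyroid hormone receptor gene *THRB* had 3, 2, and 6 reads in the DMSO samples and 60, 15, and 13 in the treated samples (log2 fold change 4.15). *THRB* passed the expression filter only through the mocetinostat samples. Its ratio of count shares was 20.01, with a 95% counting interval of 10.7 to 41.6. *FOXO1*, a forkhead factor gene, rose by 2.39 on the log2 scale, with 22.7% of its exons covered by a gene on the same strand. The 5 DRGs included *HCFC1* (-1.83), whose product binds GABP and PGC-1 family members, the acetyltransferase genes *CREBBP* (-1.40) and *KAT2A* (-1.34), and the Mediator subunit gene *MED1* (-1.02), which was no DRG without DMSO replicate 1 or in thinned libraries (-0.99 and -0.98). The estrogen-related receptor gene *ESRRA*, a main partner of PGC-1α that was singled out after its values had been seen, had a log2 fold change of 0.02 (adjusted p = 0.920 with the edgeR test). *ESRRG* held at most 12 counts in any sample and was not tested. Its treated samples (6, 12, and 6 reads, mean 3.70 CPM) all lay above its DMSO samples (2, 0, and 2 reads, mean 0.159 CPM). For *ESRRB*, also untested, the treated libraries had 5, 1, and 12 reads, while the DMSO libraries had 0, 0, and 2.

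Of 32 genes known to act on *PPARGC1A* or its product, 30 were tested, 15 were higher, and 9 were lower. The shares over all genes tested were 32.9% higher and 31.4% lower. The median of the 30 genes was 0.19 on the log2 scale. The numbers higher and lower were 20 and 3 with *GAPDH* scaling but 6 and 11 without the expression filter. *PRKAA2*, the α2 catalytic subunit gene of the energy sensor AMPK, had 3, 1, and 1 reads in the DMSO samples and 56, 22, and 22 in the treated samples, a ratio of 50.03 with a 95% counting interval of 20.7 to 157. *PRKAA2* passed the expression filter only through the mocetinostat samples. The calcium-dependent kinase gene *CAMK4* (log2 fold change 1.63), *TWIST1* (1.07), whose product represses PGC-1α targets, and the p38 kinase gene *MAPK11* (1.00) were URGs as well. *MAPK11* passed the threshold by a small margin and lost the call with DESeq2 (0.99), without the filter (0.75), with the replicate block (0.996), and without DMSO replicate 2 (0.94), DMSO replicate 3 (0.97), mocetinostat replicate 2 (0.98), or mocetinostat replicate 3 (0.80). *TWIST1* lost it without the filter (0.82) and without mocetinostat replicate 1 (0.94) or 2 (0.998). *MAPK12*, another p38 kinase gene, was the only DRG of this list (-1.14), with 29.7% of its exons covered by a gene on the same strand, and was no DRG without mocetinostat replicate 1 (-0.99) or in thinned libraries (-0.85).

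Across the 6 samples, the genes whose log2 CPM followed *PPARGC1A* most closely were *ENPP1*, *USP25*, *PTGS2*, *PADI3*, and *GPC4*, with Pearson r from 0.998 to 0.999. For *PPRC1* they were *ELAC2*, *MAP3K11*, *DNAJC11*, *MEPCE*, and *DAZAP1*, also with r from 0.998 to 0.999. The 6 points fall into the 2 conditions, so that r mostly restates the difference between them, and 2021 of 13965 genes reached an r over 0.95 with *PPARGC1A* and 1396 with *PPRC1*.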

How the data were processed

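High-throughput RNA-Seq of TC28a2 cells gave 1 table of raw counts for 3 DMSO-treated and 3 mocetinostat-treated samples. The authors deposited whole counts of reads per gene without normalization. According to the study's methods, single reads of 100 bases were trimmed, ribosomal RNA reads were removed, and the rest were aligned to GRCh38 with STAR version 2.6.1d and assigned to genes with featureCounts version 1.6.4. The strand setting is not given in the sources used here. All columns were matched to samples by name.

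edgeR version 4.0.16 (limma 3.58.1, R 4.3.3) was used with TMM factors. Its filterByExpr function (minimum count 10) left 13966 of 60623 genes for the quasi-likelihood test, with treatment as the only term and with Benjamini-Hochberg adjustment over all genes tested. A call required an adjusted p below 0.05 together with a log2 fold change beyond 1 in either direction. Ratios of counts (plus 0.5) were tested by exact two-sided permutation. The 10 genes and all lists were chosen with earlier results of these data known. In each list, genes past both thresholds were named, at most 4 per direction by size, or otherwise the most extreme gene. Lengths, positions, and overlaps come from GENCODE release 44 (99.5% of identifiers matched), and promoters from RefSeq. Among the 6 pairs of replicates within conditions, counts differed by more than sampling noise. Such a spread cannot tell separate cultures from repeated libraries. Each sample was treated as a replicate, as the study describes 3 independent experiments. Same-numbered samples did not deviate together (r from -0.02 to 0.01), so replicate numbers were not treated as pairs. RPKM used the union of exons. Python 3.11.15 with pandas 2.3.3 made summaries and figures. The fits were tested on simulated data in which equal numbers of genes were raised and lowered. That simulation did not cover a response with more genes up than down, so it does not test the scaling between these samples. Intervals cover counting error only, since reads carry no molecular identifiers. The alternatives were DESeq2 version 1.42.0, RLE, upper-quartile, total-count, and *GAPDH* scaling, 2 other filters, glmTreat, a replicate block, thinning to 1619344 counts, and leaving out each sample.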

Additional observations from a re-analysis of the deposited data

How the results depend on the processing

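Of the 10 genes, 8 kept their direction in every alternative, and 7 stayed on the same side of an adjusted p of 0.05 in every alternative that tested them against no change; *PPARGC1B*, *TFAM*, and *POLRMT* were the exceptions. Scaling each library to *GAPDH* moved the counts most: 4425 genes were called upregulated and 284 downregulated over all genes (94.0% upregulated, beside 71.2% with TMM), 2 of the 10 were called upregulated and 1 downregulated, and *TFAM* (0.29) and *POLRMT* (0.041) changed direction. With at least 10 counts in every sample, 1620 and 704 genes were called and 0 of the 10 were upregulated, because *PPARGC1A* was not tested. glmTreat called 465 genes downregulated (81.6% of its calls were upregulated), and 1 of the 10, *NRF1*. It did not call *TFB2M* (adjusted p = 0.486) or *GABPA* (adjusted p = 0.246). Without the expression filter, 2120 genes were downregulated (60.2% of calls were upregulated), and the median log2 fold change of all genes moved by -0.25. In thinned libraries the log2 ratio of *GABPA* to *GABPB1* differed by -0.0055 between conditions. With each sample left out in turn, 2842 to 3216 genes were called upregulated and 1173 to 1267 downregulated. With the replicate number as a block, 2798 and 1133 genes were called, 1 of the 10 was upregulated and 4 were downregulated, and no call among the 10 changed; the labels do not say that the numbers pair the samples. Among the 20 counts of list genes higher or lower, 16 moved by over 1.5 times under *GAPDH* scaling, 7 without the filter, 7 after thinning to the smallest total, 5 with at least 10 counts in every sample, 4 with upper-quartile factors, and 3 with DESeq2. After thinning, the lists had higher and lower genes of 4 and 9 (partners), 13 and 5 (inputs), 2 and 6 (replication), 1 and 5 (transcription), 0 and 14 (RNA processing), 8 and 1 (mitochondrial mRNAs), 7 and 1 (PGC-1α-responsive), 0 and 16 (import), 2 and 5 (fusion to mitophagy), and 3 and 2 (relatives). Depth limits *PPARGC1A* with DMSO, where the samples held 10 counts or fewer.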

Other observations

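The genes for mitochondrial fusion, fission, and mitophagy were divided. The shares over all genes tested, for comparison, were 32.9% higher and 31.4% lower. Of 17 genes, 15 were tested, 1 was higher and 5 were lower at an adjusted p under 0.05 with edgeR's quasi-likelihood test, and the median log2 fold change was -0.03. *BNIP3L*, a mitophagy receptor gene, was the higher one (0.36, adjusted p = 0.00256), although its adjusted p was over 0.05 without the expression filter and without DMSO replicate 2 or mocetinostat replicate 1. *MFN2*, a fusion gene, was the only DRG. With *GAPDH* scaling, 8 were higher and 1 was lower.

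Of 10 relatives and neighbors of the biogenesis genes, 1 was higher and 3 were lower, at a median log2 fold change of -0.11 and with none past the threshold of 1. Over all genes tested, 32.9% were higher and 31.4% were lower. *GABPB2*, the other gene for an activating GABP subunit, had 176, 72, and 88 reads in the DMSO samples and 45, 12, and 12 in the treated samples (log2 fold change -0.98, adjusted p = 0.000684 with the edgeR test). The ETS factor gene *ETV5* was higher (0.58, adjusted p = 1.53e-06). With *GAPDH* scaling, 5 were higher and 1 was lower.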
